A study of Homo sapiens with 6 samples.

Results

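The spindle assembly checkpoint, the Aurora kinases and the anaphase-promoting complex (APC/C) were examined through 10 genes chosen by symbol, which were AURKA, AURKB, BUB1, BUB1B, MAD2L1, TTK, CDC20, UBE2C, PTTG1 and FBXO5. All 10 were found, among 50868 genes in the deposited table, and all 10 passed the filter on low counts that left 14250 genes for testing. RNA was sequenced from KYSE-150, a long-established line of human squamous carcinoma of the oesophagus, in 2 groups of 3 libraries. The siZNF514 cells carry the label of a ZNF514 knockout made by siZNF514, and the nc cells are described as wild type. The labels name no control siRNA, dose or time after treatment, and the medium (RPMI with 10% serum) was the same for both groups. The prefix si is the usual one for small interfering RNA, which reduces a transcript without altering its gene. No label ties the libraries of a group to separate cultures, and p-values here therefore measure the spread between libraries, which may be technical.

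The checkpoint delays anaphase until every chromosome is attached to the spindle. Kinases such as TTK and BUB1 act at unattached kinetochores, where MAD2L1 and BUB1B are assembled with CDC20 into an inhibitor of the APC/C. AURKA works at spindle poles, and AURKB, in the chromosomal passenger complex, corrects faulty attachments. Once the checkpoint is satisfied, the APC/C with its coactivator CDC20 and the ubiquitin-conjugating enzyme UBE2C marks securin (PTTG1) and cyclin B for destruction, and chromatids part. FBXO5 inhibits the APC/C earlier, in S and G2 phase. Transcripts of most of these genes peak in G2 and mitosis and are made from promoters rich in CCAAT boxes and in the cell cycle genes homology region (CHR), a short TTTGAA-like element. In bulk RNA a larger share of cells in those phases and more transcript per cell cannot be told apart.

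The promoters are shown as a description only, and whether they bear on the rise of the 10 genes was not tested. RefSeq promoter windows (assembly GRCh38.p14, 250 bases before to 50 bases after a start site) were matched by symbol for 7 of the 10 genes, with 10 windows in all since AURKB, FBXO5 and PTTG1 have 2 each. The CCAAT box was searched by those letters and the CHR by the spellings TTTGAA and TTCGAA. An E2F element was searched by the spelling TTCCCGC and also by another spelling, TTGGCGC. Every search covered both strands. Below, the last 150 bases before the start site are printed 5′ to 3′ in the direction of transcription, with capitals for matches on either strand.
CDC20 promoter (chr1:43358831-43358980, plus strand): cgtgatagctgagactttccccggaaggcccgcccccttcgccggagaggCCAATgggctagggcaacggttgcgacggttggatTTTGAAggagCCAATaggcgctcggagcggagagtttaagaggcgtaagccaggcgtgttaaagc
BUB1 promoter (chr2:110678064-110678213, minus strand): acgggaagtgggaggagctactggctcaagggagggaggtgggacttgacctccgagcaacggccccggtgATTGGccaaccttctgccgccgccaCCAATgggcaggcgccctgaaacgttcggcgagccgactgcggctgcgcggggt
BUB1B promoter (chr15:40160919-40161068, plus strand): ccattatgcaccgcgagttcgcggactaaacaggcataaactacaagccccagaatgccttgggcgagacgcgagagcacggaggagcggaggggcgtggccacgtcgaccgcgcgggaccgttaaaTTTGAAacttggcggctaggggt
PTTG1 promoter (chr5:160421705-160421854, plus strand): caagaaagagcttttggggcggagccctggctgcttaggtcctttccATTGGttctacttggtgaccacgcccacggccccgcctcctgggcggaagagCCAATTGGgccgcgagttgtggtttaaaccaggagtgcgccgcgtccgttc
In CDC20, a TTTGAA starts 65 bases before the start site, between CCAAT matches that start 100 and 55 bases before it, and another match on the opposite strand lies 178 bases before it. BUB1 has CCAAT matches 79 and 54 bases before its start, and a TTCGAA at base 2 after it, outside the printed stretch. BUB1B has a TTTGAA 23 bases before its start and no CCAAT match in its window. PTTG1 has CCAAT matches 103, 51 and 48 bases before the upper of its start sites, and the last 2 share letters, CCAATTGG holding the motif on both strands.

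In one of the FBXO5 windows, CCAAT matches start 141, 138, 98 and 68 bases before the start site, the 2 farthest sharing letters, and a TTTGAA on the opposite strand starts 40 bases before it. The other FBXO5 window, which belongs to the upstream start site, has no match. AURKB has a single CCAAT match, 153 or 129 bases before the start depending on the start site, and MAD2L1 has one 229 bases before and a TTTGAA 25 bases after its start. CCAAT was held by 8 of the 10 windows (6 of the 7 genes), TTTGAA by 4 windows and TTCGAA by 1. The 2 PTTG1 windows overlap and hold the same CCAAT matches, as do the 2 AURKB windows, so the count by windows repeats these sites. Of all 35116 windows in the RefSeq table, 34.6% held CCAAT, 15.2% TTTGAA and 1.45% TTCGAA. The E2F spelling TTCCCGC, held by 6.55% of all windows, and the other spelling, held by 3.04%, had no match in the 10 windows, which says only that these letters are not there. A match is a description of letters and not of a bound site.

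The siZNF514 libraries held 13262363 to 14318909 counts and the nc libraries 12175259 to 13696180. The targeted transcript, ZNF514, had 64, 82 and 63 counts in siZNF514 libraries, against 239, 273 and 261 in nc libraries (log2 fold change -1.87, SE 0.14, adjusted p = 5.77e-05 by edgeR). All 8 markers of squamous epithelial cells had a mean of at least 1 FPKM (a level per length of transcript and per total count) in a group, among them KRT5, TP63 and the E-cadherin gene CDH1, and none of the 14 markers of fibroblasts, leukocytes and endothelial cells did. The siZNF514 replicate 3 library stood apart at that low level. Its 5 fibroblast markers summed to 1.70 FPKM, against 0.11 and 0.0834 in the other siZNF514 libraries and 0.284 to 0.543 in nc libraries, and its 5 leukocyte markers to 1.60, against 0 and 0.0189 in the other siZNF514 libraries and 0.215 to 0.401 in nc libraries. Without that library all 10 genes were still called higher.

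All 10 genes rose in siZNF514 cells. A gene was called where the quasi-likelihood test of edgeR, adjusted by Benjamini-Hochberg over every tested gene, gave at most 0.05. The background was high, since 25.5% of all tested genes rose and 25.1% fell. The log2 fold changes ran from 0.33 for FBXO5 to 1.20 for AURKA, with a median of 0.80, beside a median of -0.01 over all tested genes. Summed over the 10 genes, the level was 1730 ± 32.4 CPM (counts at a common library size, set by TMM factors) in siZNF514 and 967 ± 19.9 CPM in nc (SD, n = 3 each). A rise of at least 2-fold was reached by AURKA, BUB1B and PTTG1, 3 of the 10, and by 2.08% of all tested genes. With total counts alone in place of TMM factors, AURKA alone kept it, at a log2 fold change of 1.08, with 0.90 for BUB1B and 0.91 for PTTG1. The share of all tested genes that rose at least 2-fold under that scaling was not computed. In CPM, every siZNF514 library lay above every nc library for each of the 10 genes, which 30.0% of all tested genes also showed, with 30.3% the other way round. For each gene alone, an exact two-sided permutation test reached p = 0.1, and 3 libraries against 3 can give no less.

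**Figure D1:**
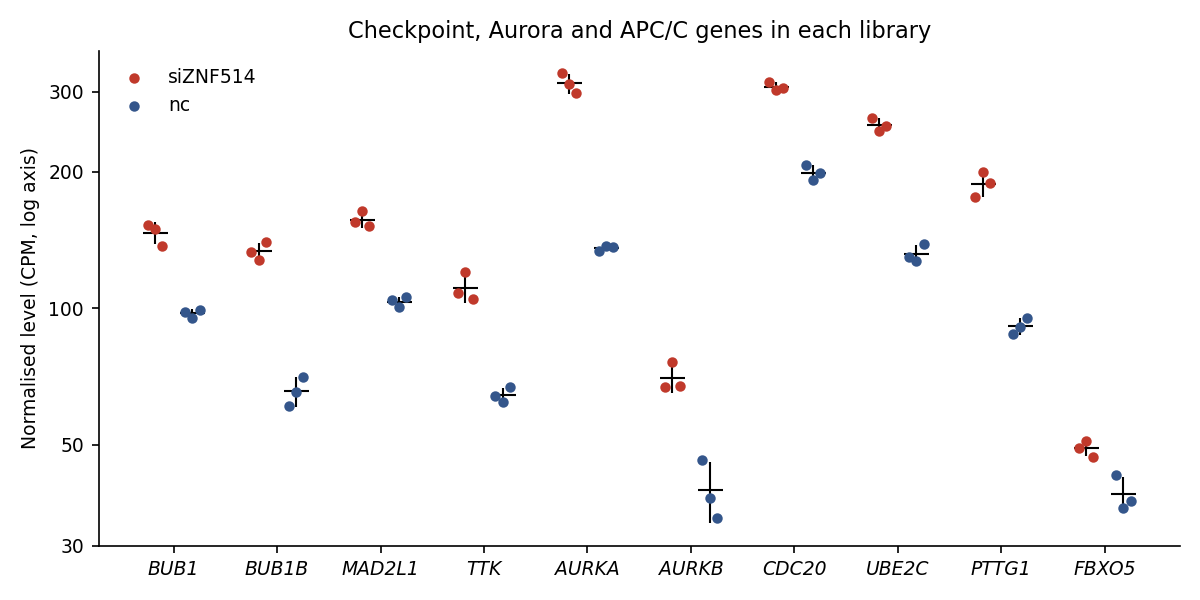
Normalised level (CPM, log axis) of each gene in each library, siZNF514 in red and nc in blue, with bars for mean ± SD of 3 libraries. No siZNF514 library lies within the nc range for any gene, and the gap is widest for AURKA (313 CPM against 136 CPM).

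Among the checkpoint genes, the largest rise was in BUB1B (ENSG00000156970; GRCh38 chromosome 15, 40161023 to 40221136, plus strand), which encodes BUBR1, the part of the mitotic checkpoint complex that blocks the APC/C. BUB1B had 133, 128 and 139.7 CPM in siZNF514 libraries, against 60.8, 65.4 and 70.6 CPM in nc libraries. The lowest siZNF514 library was well above the highest nc library, and the log2 fold change was 1.03 (SE 0.07, adjusted p = 3.95e-05, edgeR), higher than in 97.9% of tested genes. A readthrough transcript, BUB1B-PAK6, overlaps BUB1B on the same strand and had 67 counts over the siZNF514 group and 67 over the nc group, where BUB1B itself had 1700, 1668 and 1906 counts in siZNF514 libraries and 783, 932 and 895 in nc libraries.

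BUB1 (ENSG00000169679; chromosome 2, 110637698 to 110678114, minus strand) encodes the related kinase that marks centromeric chromatin. It had 153, 149.7 and 137 CPM in siZNF514 libraries, against 98.1, 95.0 and 99.2 CPM in nc libraries. The siZNF514 libraries were all higher, by a smaller margin than for BUB1B (log2 fold change 0.59, SE 0.05, adjusted p = 0.000147, edgeR). TTK (ENSG00000112742; chromosome 6, 80003887 to 80042527, plus strand), the kinase MPS1 that starts checkpoint signalling, had 108, 120.5 and 105 CPM in siZNF514 libraries, against 64.1, 62.3 and 67.0 CPM in nc libraries. Replicate 2 was the highest of the siZNF514 libraries, and all 3 exceeded the nc range (log2 fold change 0.78, SE 0.07, adjusted p = 0.000112, edgeR). MAD2L1 (ENSG00000164109; chromosome 4, 120055608 to 120067074, minus strand), whose protein MAD2 captures CDC20, had 155, 164 and 152 CPM in siZNF514 libraries, against 104, 101 and 106 CPM in nc libraries. The groups were tight and apart, and an antisense transcript that overlaps MAD2L1 had 2 counts over the siZNF514 group and 3 over the nc group (log2 fold change of MAD2L1 0.60, SE 0.05, adjusted p = 9.07e-05, edgeR).

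Both Aurora kinase genes rose. AURKA (ENSG00000087586; chromosome 20, 56369389 to 56392337, minus strand) had 329, 312 and 298 CPM in siZNF514 libraries, against 134, 137 and 136 CPM in nc libraries. The nc libraries differed little, with a coefficient of variation of 1.23%, and the siZNF514 libraries were more than 2-fold above them (log2 fold change 1.20, SE 0.05, adjusted p = 6.56e-06, edgeR), and 98.8% of tested genes had a lower log2 fold change. The pseudogene copy AURKAP1, with which reads could be shared, had 89 counts over the siZNF514 group and 136 over the nc group, and AURKA had 17737 over all libraries. AURKB (ENSG00000178999; chromosome 17, 8204733 to 8210600, minus strand) had 66.9, 76.0 and 67.4 CPM in siZNF514 libraries, against 46.4, 38.2 and 34.6 CPM in nc libraries. It was the most variable of the 10 genes in nc, with a coefficient of variation of 15.3%, and its log2 fold change was 0.82 (SE 0.11, adjusted p = 0.000979, edgeR).

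On the side of the APC/C, the coactivator, the conjugating enzyme and the substrate securin all rose. CDC20 (ENSG00000117399; chromosome 1, 43358955 to 43363203, plus strand), which brings substrates to the APC/C and is itself the target of the checkpoint, had 316, 302 and 305 CPM in siZNF514 libraries, against 207, 192 and 198 CPM in nc libraries. All siZNF514 libraries were higher and the spread was small in both groups (log2 fold change 0.63, SE 0.04, adjusted p = 4.5e-05, edgeR). UBE2C (ENSG00000175063; chromosome 20, 45812576 to 45816957, plus strand), which places the initial ubiquitins on APC/C substrates, had 263, 246 and 252 CPM in siZNF514 libraries, against 129.7, 127 and 138 CPM in nc libraries. The siZNF514 libraries were all far above the nc range (log2 fold change 0.95, SE 0.05, adjusted p = 1.83e-05, edgeR).

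PTTG1 (ENSG00000164611; chromosome 5, 160421822 to 160428744, plus strand) encodes securin, which holds separase inactive until the APC/C degrades it. It had 175, 199 and 189 CPM in siZNF514 libraries, against 87.6, 91.1 and 95.1 CPM in nc libraries. No siZNF514 library came near the nc range (log2 fold change 1.04, SE 0.06, adjusted p = 2.66e-05, edgeR). The near-identical copies PTTG3P and PTTG2 had 10 and 0 counts over the siZNF514 group and 1 and 0 over the nc group. Listed copies of AURKB, BUB1, CDC20, MAD2L1 and UBE2C each had at most 117 counts over a group.

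The smallest rise was in FBXO5 (ENSG00000112029; chromosome 6, 152970519 to 152983579, minus strand), which encodes the APC/C inhibitor EMI1. FBXO5 had 49.3, 51.1 and 47.1 CPM in siZNF514 libraries, against 43.0, 36.3 and 37.7 CPM in nc libraries. The groups did not overlap in CPM, but in FPKM they did, with 8.99 in siZNF514 replicate 3 and 9.02 in nc replicate 1 (log2 fold change 0.33, SE 0.08, adjusted p = 0.0108, edgeR), and 76.2% of tested genes had a lower value. FBXO5 was the only one of the 10 whose call rested on the scaling of libraries. With total counts alone in place of TMM factors, its log2 fold change was 0.21 (adjusted p = 0.0678, edgeR), and the other 9 remained called, at 0.46 to 1.08. That scaling moved the median of all genes by -0.13, and 17.5% of tested genes then rose and 33.5% fell.

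In FPKM, CDC20 and UBE2C were the highest of the 10 transcripts in both groups. The order between genes depends on the lengths behind the deposited FPKM, which were not checked. In CPM, which takes no account of length, AURKA (313 CPM) and CDC20 (308 CPM) lay above UBE2C (254 CPM) in siZNF514. In siZNF514, CDC20 was at 104 ± 2.91 FPKM and UBE2C at 100.5 ± 3.73 FPKM (SD, n = 3), and their ranges overlapped. In nc, CDC20 stood above UBE2C with no overlap, at 73.5 ± 2.95 FPKM and 56.9 ± 2.50 FPKM. PTTG1 and AURKA came next in both groups, at 52.6 ± 3.12 and 47.5 ± 2.62 FPKM in siZNF514, where they overlapped, and at 27.9 ± 1.06 and 22.5 ± 0.209 FPKM in nc, where they did not.

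The remaining transcripts lay lower. MAD2L1 was at 19.1 ± 0.757 FPKM in siZNF514 and 13.8 ± 0.369 FPKM in nc. BUB1B, TTK and BUB1 followed in siZNF514, at 17.04 ± 0.751, 16.4 ± 1.21 and 15.6 ± 0.901 FPKM, each overlapping the next. In nc the order of these 3 was the reverse, BUB1 at 11.3 ± 0.266, TTK at 10.4 ± 0.378 and BUB1B at 9.12 ± 0.66 FPKM, with no overlap between neighbours. AURKB and FBXO5 had the lowest means, at 11.3 ± 0.79 and 9.41 ± 0.382 FPKM in siZNF514, without overlap, and at 6.98 ± 1.09 and 8.15 ± 0.763 FPKM in nc, where they overlapped. FBXO5 also overlapped BUB1B in nc. In CPM the nc means of AURKB and FBXO5 were 39.7 and 39.0. FPKM carries no scaling beyond total counts, so the genes followed here, which all rose, did so by smaller ratios in FPKM than in CPM.

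**Figure D2:**
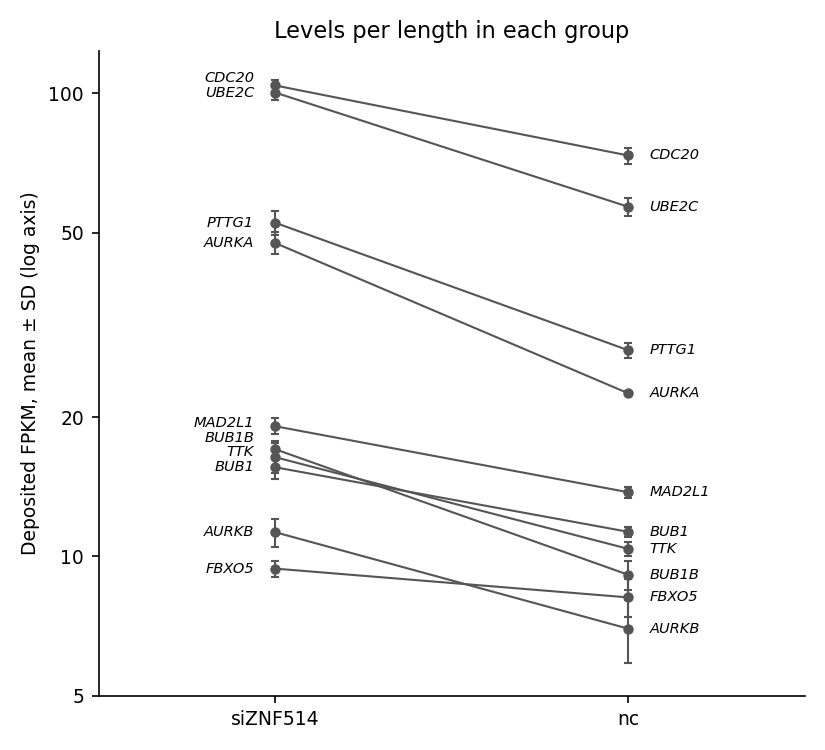
Deposited FPKM (log axis) of the 10 genes, with points for group means and bars for the SD of 3 libraries, siZNF514 on the left and nc on the right. Lines that cross mark changes of order in FPKM, which depend on the lengths behind it. BUB1B lies above TTK and BUB1 in siZNF514 and below them in nc. AURKB lies above FBXO5 in siZNF514 and below it in nc.

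Ratios of pairs of transcripts within a library do not move with the scaling of libraries, and they set the partners of a pair against each other. There were 11 pairs, each tested by an exact two-sided permutation test over 3 against 3 libraries, which cannot go below p = 0.1, or 0.1375 after Benjamini-Hochberg adjustment here. No pair can therefore pass 0.05, and 8 of the 11 reached that smallest value, since their groups did not overlap. Among single genes such a lack of overlap was common, in 30.0% of those tested with siZNF514 higher and in 30.3% with siZNF514 lower, and the share among other pairs was not computed. Ratios below are of FPKM.

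TPX2 is the spindle protein that activates the AURKA kinase. The AURKA/TPX2 ratio was 0.336, 0.316 and 0.299 in siZNF514 libraries, against 0.196, 0.205 and 0.207 in nc libraries. All siZNF514 libraries were higher, a difference of 0.64 on the log2 scale (exact permutation p = 0.1). The AURKA/AURKB ratio was 4.65, 3.87 and 4.17 in siZNF514 libraries, against 2.72, 3.39 and 3.72 in nc libraries, close to overlap (0.38 on the log2 scale, exact permutation p = 0.1). The ratio of AURKB to INCENP, the scaffold of its complex, was 0.589, 0.659 and 0.655 in siZNF514 libraries, against 0.594, 0.507 and 0.456 in nc libraries, and the groups overlapped (0.30 on the log2 scale, exact permutation p = 0.2).

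Within the checkpoint, the BUB1/BUB1B ratio was 0.953, 0.976 and 0.82 in siZNF514 libraries, against 1.35, 1.21 and 1.17 in nc libraries (-0.44 on the log2 scale, exact permutation p = 0.1). Which of the pair is larger depends on the lengths behind FPKM. In counts, the mean log2 ratio favoured BUB1 in both groups, at 0.13 in siZNF514 and 0.57 in nc. The BUB1B/CDC20 ratio was 0.159, 0.160 and 0.172 in siZNF514 libraries, against 0.111, 0.128 and 0.134 in nc libraries (0.40 on the log2 scale, exact permutation p = 0.1). The MAD2L1/CDC20 ratio, by contrast, was 0.176, 0.196 and 0.179 in siZNF514 libraries, against 0.182, 0.189 and 0.192 in nc libraries. These values interleave, and the difference of -0.03 on the log2 scale was within the SD of 0.06 between libraries (exact permutation p = 0.7). The TTK/AURKB ratio overlapped as well, at 1.48, 1.45 and 1.42 in siZNF514 libraries, against 1.27, 1.49 and 1.78 in nc libraries (-0.05 on the log2 scale, exact permutation p = 0.7).

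FZR1 is the coactivator that takes over the APC/C from late mitosis. The CDC20/FZR1 ratio was 13.5, 12.3 and 11.3 in siZNF514 libraries, against 8.81, 8.51 and 8.86 in nc libraries, with no overlap (0.50 on the log2 scale, exact permutation p = 0.1). The ratio of the inhibitor FBXO5 to CDC20 was 0.0883, 0.0956 and 0.0873 in siZNF514 libraries, against 0.118, 0.107 and 0.108 in nc libraries, lower in every siZNF514 library (-0.29 on the log2 scale, exact permutation p = 0.1). The ratio of securin to separase, PTTG1/ESPL1, was 5.97, 6.75 and 6.08 in siZNF514 libraries, against 4.88, 4.56 and 5.28 in nc libraries (0.35 on the log2 scale, exact permutation p = 0.1). The ratio of UBE2C to UBE2S, the enzyme that extends the ubiquitin chains, was 1.16, 1.11 and 1.10 in siZNF514 libraries, against 0.90, 0.863 and 0.98 in nc libraries, higher in every siZNF514 library (0.30 on the log2 scale, exact permutation p = 0.1).

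**Figure D3:**
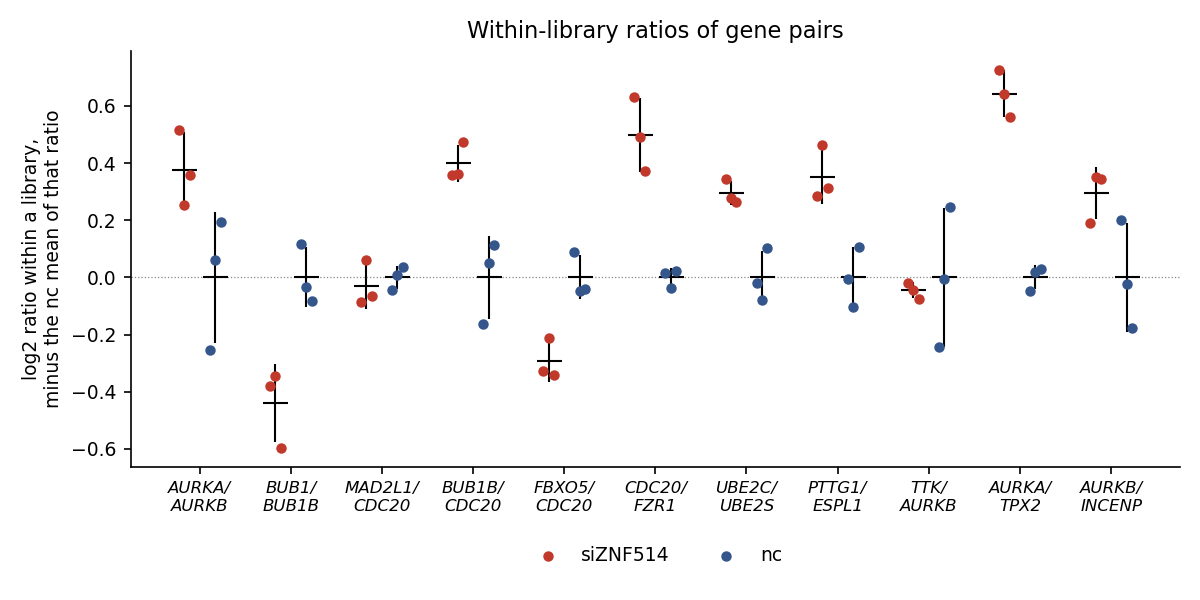
Within-library log2 ratio of each gene pair, from which the nc mean of that ratio was subtracted, for siZNF514 (red) and nc (blue) libraries, with bars for mean ± SD of 3 libraries. AURKA/TPX2 shows the widest gap, at 0.64, and MAD2L1/CDC20 and TTK/AURKB interleave.

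Other genes of the pathway were followed in lists by role. The median log2 fold change of 10 checkpoint partners was 0.15. Of the 10, 5 rose and 5 failed the test, beside 25.5% of all tested genes that rose. SPDL1, which recruits dynein to kinetochores, was at 71.2 ± 4.18 CPM in siZNF514 and 46.4 ± 0.515 CPM in nc (0.62, SE 0.06). TRIP13, the ATPase that remodels MAD2 and so disassembles the checkpoint complex, was at 157 ± 2.08 CPM in siZNF514 and 114 ± 5.69 CPM in nc (0.46, SE 0.05). SGO1, protector of centromeric cohesion, rose by 0.56 (SE 0.10) and MAD1L1, the partner of MAD2 at kinetochores, by 0.28 (SE 0.05). Adjusted p-values for these 4 ran from 0.0002 to 0.00405 (edgeR), and MAD1L1 did not pass in the limma-trend fits on FPKM, at 0.13 to 0.16. Counted with total counts alone, 4 of the 10 checkpoint partners rose and 3 fell, beside 17.5% and 33.5% of all tested genes.

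The 9 tested Aurora partners had a median of 0.46. Of the 9, 7 rose, 1 fell and 1, AURKAIP1, did not pass, beside 25.5% and 25.1% of all tested genes that rose and fell. AURKAIP1, named after its value was seen, was at 0.15 (SE 0.06). The kinase gene PLK1 was at 200.03 ± 7.29 CPM in siZNF514 and 97.9 ± 6.70 CPM in nc (1.03, SE 0.06, adjusted p = 2.88e-05, edgeR). TPX2 (0.56, SE 0.03) and the passenger complex genes INCENP (0.53, SE 0.06) and CDCA8 (0.46, SE 0.05) rose less. The one that fell was HASPIN, the histone H3 kinase that draws the passenger complex to centromeres. HASPIN had 22.6, 24.0 and 25.2 CPM in siZNF514 libraries, against 35.0, 29.9 and 30.8 CPM in nc libraries (-0.41, SE 0.09, adjusted p = 0.00709, edgeR). AURKC had too few counts to test.

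Of 14 tested core subunits of the APC/C 4 rose, 3 fell and 7 did not pass, shares near the 25.5% and 25.1% of all tested genes, and their median was 0.01. ANAPC7, a scaffold subunit, had 31.9, 36.6 and 29.2 CPM in siZNF514 libraries, against 62.7, 53.4 and 57.5 CPM in nc libraries (-0.83, SE 0.10, adjusted p = 0.000547, edgeR). All siZNF514 libraries were lower, and the small subunit genes CDC26 (-0.70, SE 0.09) and ANAPC16 (-0.42, SE 0.04) fell as well. ANAPC13, another small subunit, rose to 93.4 ± 6.90 CPM in siZNF514, against 57.1 ± 8.95 CPM in nc (0.71, SE 0.11, adjusted p = 0.00194, edgeR). With total counts alone, 2 core subunits rose and 5 fell, beside 17.5% and 33.5% of all tested genes.

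Of 4 tested partners of the complex, UBE2S (0.65, SE 0.04) and the separase gene ESPL1 (0.69, SE 0.06) rose. These are too few genes to set against the 25.5% of all tested genes that rose. FZR1 did not pass (0.13, SE 0.07, adjusted p = 0.137, edgeR), at 66.3 ± 4.96 CPM in siZNF514 and 60.5 ± 1.54 CPM in nc, and neither did UBE2D1, an alternative conjugating enzyme (-0.21, SE 0.11, adjusted p = 0.156, edgeR; past the threshold at -0.30 without nc replicate 1, at -0.33 with total counts alone and at -0.27 to -0.32 in the limma-trend fits on FPKM). The 11 APC/C substrates had a median of 0.57. Of the 11, 10 rose, beside 25.5% of all tested genes, and CKAP2, named after its value was seen, did not pass (0.45, SE 0.22). CCNB1 was at 410.1 ± 6.15 CPM in siZNF514 and 195 ± 15.2 CPM in nc (1.07, SE 0.06), and the mitotic kinase gene NEK2 at 71.1 ± 3.57 CPM in siZNF514 and 32.6 ± 1.61 CPM in nc (1.13, SE 0.07). CCNB2 rose by 1.18 and CCNA2 by 1.10 on the log2 scale, about as much as AURKA. Adjusted p-values for these 4 were at most 2.66e-05 (edgeR).

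The FBXO5 protein is removed at mitotic entry by the SCF ligase with BTRC. Of 5 tested genes of that ligase 3 rose, with BTRC at 0.46 (SE 0.07), SKP1 at 0.42 (SE 0.04) and RBX1 at 0.36 (SE 0.09), and adjusted p-values from 0.00027 to 0.0122 (edgeR). CUL1 did not pass (0.14, SE 0.10, adjusted p = 0.267, edgeR). A list of 5 genes is too short to set against the 25.5% of all tested genes that rose. RBX1 no longer passed with total counts alone, at 0.23, or in the limma-trend fit with a mean FPKM of at least 0.5, at 0.24.

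**Figure D4:**
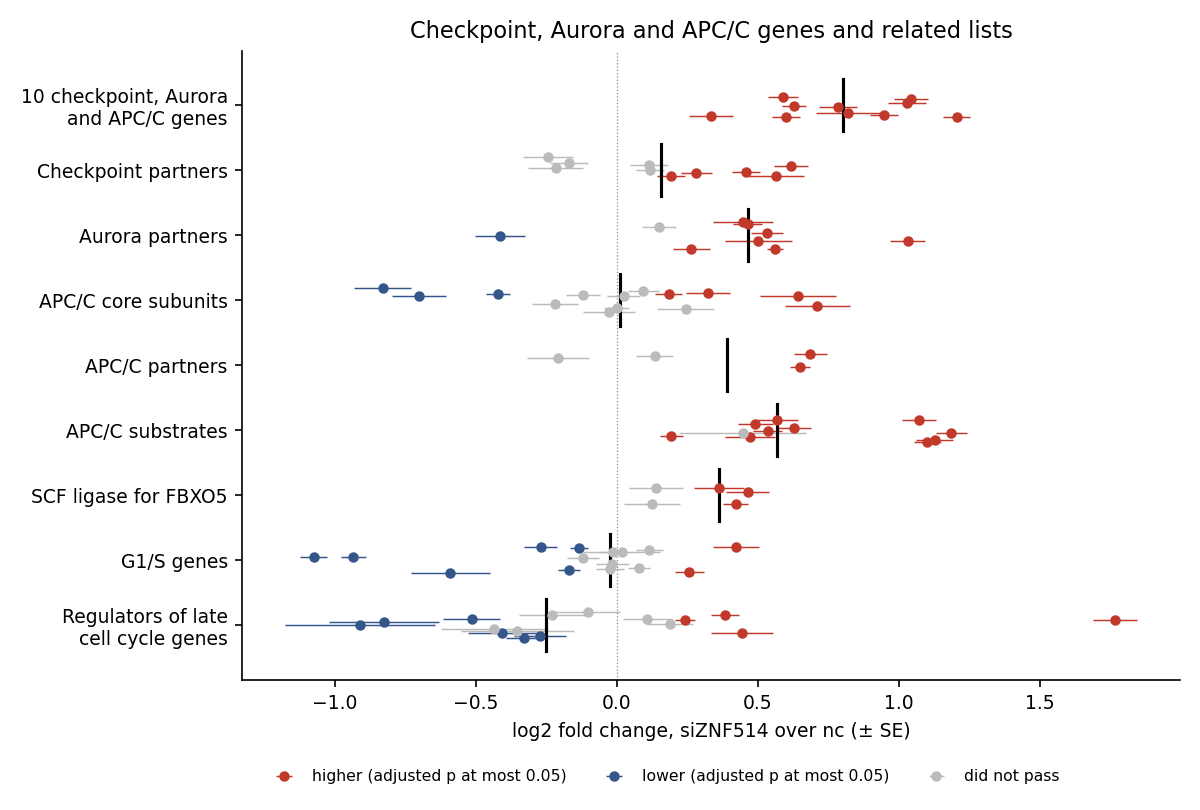
Log2 fold change (siZNF514 over nc, ± SE) of each tested gene, by list, with red for genes that rose, blue for genes that fell and grey for those that did not pass an adjusted p of 0.05; the black bar is the median of a list. All 10 checkpoint, Aurora and APC/C genes and 10 of 11 APC/C substrates are red, while the APC/C core subunits spread on both sides of 0. Of all tested genes 25.5% rose and 25.1% fell.

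Genes of G1/S, before most of the 10 transcripts peak, had a median of -0.02. Of 15 tested 2 rose, 6 fell and 7 did not pass, beside 25.5% and 25.1% of all tested genes that rose and fell. The largest falls were in CDC6, which loads the replicative helicase (83.0 ± 2.40 CPM in siZNF514 and 175 ± 6.13 CPM in nc, -1.07, SE 0.05), and in PCNA, the polymerase clamp (152 ± 1.42 CPM in siZNF514 and 290.5 ± 12.9 CPM in nc, -0.93, SE 0.04). MCM7, a subunit of that helicase, rose by 0.42 (SE 0.08) and E2F1 by 0.26 (SE 0.05), E2F1 not passing with total counts alone, at 0.13. Adjusted p-values for these 4 were at most 0.00517 (edgeR). With total counts alone, 1 of the 15 G1/S genes rose and 9 fell, beside 17.5% and 33.5% of all tested genes.

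Regulators of late cell cycle transcription had a median of -0.25. Of 16 tested 4 rose, 6 fell and 6 did not pass, beside 25.5% and 25.1% of all tested genes. Without siZNF514 replicate 1, 3 fell, and without nc replicate 1 or 3, or siZNF514 replicate 2, 4 fell, near the share of all genes. CDKN1A, the p53 target p21, rose by 1.77 (SE 0.08) on the log2 scale, with 130.0, 124 and 129 CPM in siZNF514 libraries, against 39.4, 33.3 and 39.9 CPM in nc libraries. MYBL2 (B-MYB), which activates CHR promoters with the MuvB complex, rose by 0.38 (SE 0.05), the pocket protein gene RBL2 by 0.24 (SE 0.04), and NFYB, a subunit of the CCAAT-binding factor NF-Y, by 0.44 (SE 0.11), NFYB not passing with total counts alone, at 0.32. RBL1, another pocket protein gene, fell (-0.33, SE 0.06). Adjusted p-values for these 5 ran from 9.01e-06 to 0.0136 (edgeR). NFYB also failed in FPKM. FOXM1, a transcription factor of G2/M genes chosen after its values were seen, had 82.9, 81.4 and 78.3 CPM in siZNF514 libraries, against 100.5, 91.6 and 129.6 CPM in nc libraries (-0.41, SE 0.12, adjusted p = 0.0278, edgeR). Its high nc replicate 3 set much of that size, since the log2 fold change was -0.25 without it, and FOXM1 did not pass when siZNF514 replicate 1, 2 or 3 was left out, at -0.42, -0.40 and -0.38.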

How the data were processed

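The deposited table gives raw counts and FPKM per gene for 6 libraries, per the file headers. Per the submitters' processing notes the tools were StringTie 1.3.3b, HISAT2 2.0.4 and edgeR and the build hg38, listed without roles. The sources used here give no annotation, strand setting or filter, so reads of overlapping genes and close copies could be shared. Coordinates of the 10 genes in the deposited table equal those of GENCODE 29 (GRCh38). The deposited FPKM values equal counts per implied length and total count (implied lengths of a gene spread by up to 0.079% between libraries).

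Columns were matched by library title. Genes passing filterByExpr (minimum count 10, minimum total 15) were scaled by TMM and tested by the edgeR 4.0.16 quasi-likelihood F test (R 4.3.3, 4 residual degrees of freedom) with Benjamini-Hochberg adjustment over 14250 genes at 0.05. The script of this fit was tested on simulated data. The SE is the log2 fold change divided by the square root of F. At these depths 1 count is at most 0.0789 CPM. Replicates differed by more than sampling noise, with chi-square per degree of freedom of 7.43 to 9.69 within groups. Ratios were computed within libraries and compared by exact permutation. Alternatives used DESeq2 1.42.0, limma 3.58.1 on log2(FPKM + 0.1), other filters and scalings, left-out libraries and a replicate block.

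The 10 genes, the lists and the tests were chosen with earlier results of these data known. Genes named are the 10 and ZNF514, the 4 with the smallest p in each list, those in a ratio and those called against most of their list. Any other is said to be chosen after its values were seen.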

Additional observations from a re-analysis of the deposited data

How the results depend on the processing

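The count of the 10 genes that rose was 10 under each alternative except total counts alone and the limma-trend fits on FPKM, where it was 9 for loss of FBXO5. FBXO5 was then at 0.19 to 0.21. Over 16 alternatives for each of the 10 genes none reversed, and 155 of 160 values kept direction and side of the threshold. Replicate numbers did not pair the libraries (residual correlations of 0.0075, 0.0413 and -0.0358). With the replicate block 10 of the 10 rose, and 3356 of all genes rose and 3284 fell.

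List counts moved with the scaling, as did those of all genes, and the cause was not tested. Among all 14250 tested genes, 2528 rose and 4651 fell with limma-trend on log2(FPKM + 0.1). With total counts alone 17.5% rose and 33.5% fell. With limma-trend on log2(FPKM + 0.1), on log2(FPKM + 1), on log2(FPKM + 0.01) and with a mean FPKM of at least 0.5, APC/C core subunits were 2 higher and 6 lower, checkpoint partners 3 higher and 3 lower, and 1 APC/C partner was lower. With total counts alone these were 2 and 5 for the core, 3 lower for checkpoint partners and 1 lower for APC/C partners. G1/S genes were then 1 higher and 9 lower, and 8 or 9 were lower in the limma-trend fits on FPKM. Lower checkpoint partners numbered 1 in the DESeq2 Wald test and 2 at a mean count of at least 50. Leaving out a library gave 0 to 1 lower among checkpoint partners and among APC/C partners, and 3 to 6 lower among late cell cycle regulators. The TTK/AURKB difference on the log2 scale ran from -0.17 without nc replicate 1 to 0.078, a reversed sign, without nc replicate 3.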
